A study of Schizosaccharomyces pombe with 8 samples.

Results

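Set2 and the Clr6 complex II of fission yeast (Schizosaccharomyces pombe) were described here through the transcripts of 7 genes, picked by gene ID out of 7000 IDs in the count table. They were set2 (SPAC29B12.02c), clr6 (SPBC36.05c), pst2 (SPAC23C11.15), alp13 (SPAC23H4.12), cph1 (SPAC16C9.05), cph2 (SPAC2F7.07c) and prw1 (SPAC29A4.18), and all 7 passed the filter on low counts. The data were 8 RNA-seq libraries of ribosome-depleted total RNA, 2 for each of 4 strains that were harvested from rich medium (YES) in growth. The mutants were S2A, S7A and Y1F, in which serine 2, serine 7 or tyrosine 1 of the repeats in the C-terminal domain (CTD) of Rpb1 had been replaced (rpb1 S2A::kanMX6, rpb1 S7A::kanMX6 and rpb1 Y1F::kanMX6). The wild type (WT) had no altered rpb1 allele and no kanMX6 marker there, so in each mutant the effects of the substitution and of the marker cannot be told apart. All strains were h- and carried Rpb3-3HA::hphMX6, a tagged subunit of RNA polymerase II, also in WT. Whether the 2 libraries of each strain are of separate cultures is not stated. A p-value here therefore covers the spread between these libraries alone, and that spread may be technical.

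As background, the CTD is a run of 7-residue repeats on the largest subunit of RNA polymerase II. Set2 binds the phosphorylated CTD of elongating polymerase and methylates lysine 36 of histone H3 over gene bodies. A deacetylase complex, known in budding yeast as Rpd3S and in fission yeast as Clr6 complex II, recognises this mark and removes acetyl groups behind the polymerase. Loss of this pathway is known for transcripts that start inside genes and on the antisense strand. The study's title concerns serine 2 phosphorylation and antisense transcription. The comparisons below ask a narrower thing, whether the transcripts that encode the pathway differed between the strains.

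Each library held between 13391705 and 23081870 counts. Replicates had Spearman correlations across genes of 0.9979 to 0.9988, and counting error alone did not account for their differences (the chi-square statistic per gene was 4.88 in Y1F and 10.7 in WT, the extremes). rpb1 itself stood at 387 and 382 CPM in S2A, 377 and 388 in S7A and 450 and 449 in Y1F, against 720 and 691 CPM in WT. Counts per gene cannot show whether the repeats carry a substitution. The strains also differed at rpb3, the tagged gene. It stood at 193 and 190 CPM in S2A, 96 and 98.4 in S7A and 224 and 236 in Y1F, against 105 and 106 CPM in WT. The part of this difference in the results was not tested. Of 5 M-cell genes, which mark h- cells, 0 were at 0 counts in any library, and their summed level was 61 to 136 CPM. The 2 P-cell genes map2 and map3 summed to 14 to 21.6 CPM, and 0 of them were at 0 counts in any library either. The M-cell sum was 61 and 61.2 CPM in S2A, 87.9 and 82.3 in S7A and 108 and 104 in Y1F, against 133 and 136 CPM in WT. The P-cell sum was 17.7 and 18 CPM in S2A, 14.2 and 14 in S7A and 17.6 and 19.2 in Y1F, against 21.6 and 20 CPM in WT. Both sums were lower in every mutant library than in WT, but single genes did not all follow. By the edgeR test described below, 2 of 4 M-cell genes tested were lower and 2 not called in each mutant. Of the 2 P-cell genes 1 was higher and 1 lower in S2A, 2 were lower in S7A and 0 were called in Y1F. Among all tested genes 55.4%, 47.4% and 35% were called in S2A, S7A and Y1F. The part of these markers in the results was not tested.

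Levels are given as CPM, a gene's counts scaled to its library's total with TMM factors (TMM sets libraries to a common level through the bulk of their genes). Each of the 7 genes had 872 to 4161 counts in a library, so that counting alone gives an SD of 3.39% to 1.55% of a value. The spread between the 2 libraries of a strain was 0.556% to 6.58% of the mean. A CPM is a share of a library's RNA, so fewer transcripts per cell and more RNA from other genes cannot be told apart. Changes are log2 fold changes ± SE from edgeR's quasi-likelihood test fitted to all 8 libraries, and a gene was called at a Benjamini-Hochberg adjusted p under 0.05 over the 6243 genes tested.

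In S2A 3 of the 7 were called against WT: pst2 and alp13 were higher and clr6 was lower. In S7A 6 were called, with clr6, prw1, pst2 and cph1 higher and set2 and cph2 lower. In Y1F 0 of the 7 were called. The shares called among all genes tested were 55.4% in S2A (28.8% higher and 26.6% lower), 47.4% in S7A (23.1% and 24.3%) and 35% in Y1F (17.6% and 17.4%). The count of 3 in S2A was thus near its share of 7 genes, that of 0 in Y1F below and that of 6 in S7A above. The S7A count was 3 without S7A replicate 2, 4 without S7A replicate 1, 4 without WT replicate 1 and 4 with DESeq2.

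The sizes were modest next to those of all tested genes in S2A and Y1F. The median size of change over the 7 genes, regardless of sign, was 0.09 on the log2 scale in S2A, 0.2 in S7A and 0.08 in Y1F. Over all tested genes it was 0.23, 0.19 and 0.15 for the same mutants. Of those 6243 genes 4990 were protein-coding, as all 7 members are, and the median size over coding genes alone was not taken. The signed medians of the 7 genes were 0.05 in S2A, 0.12 in S7A and −0.05 in Y1F, against 0.009, −0.008 and 0.013 over all tested genes. The changes ranged from −0.33 to 0.47 in S2A, from −0.21 to 0.26 in S7A and from −0.09 to 0.1 in Y1F.

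**Figure D1:**
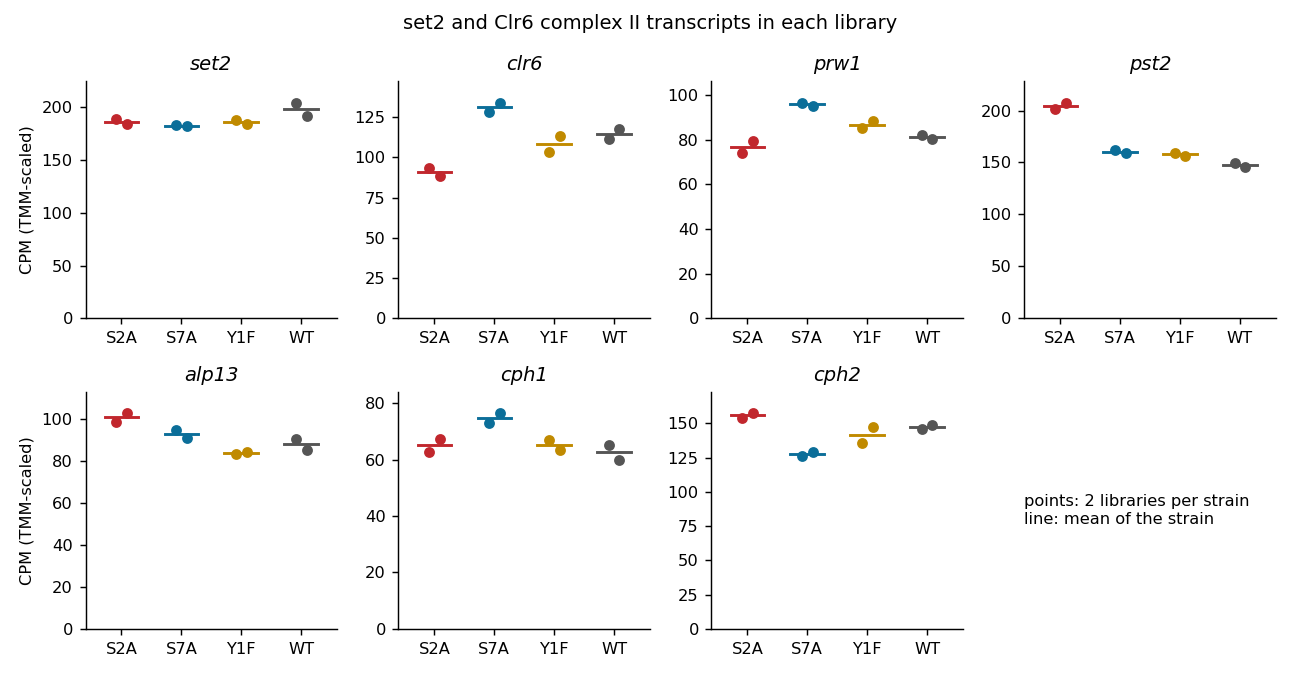
Levels of the 7 transcripts in each library (vertical axis, TMM-scaled CPM, starting at 0), with 2 points per strain and a line at their mean. The pst2 points of S2A (202 and 208 CPM) lie above all others, the clr6 points of S2A (93.7 and 88.2 CPM) lie below all others, and the set2 points lie between 182 and 205 CPM.

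set2 encodes the methyltransferase that writes the mark, and its transcript differed little between strains. It had 189 and 184 CPM in S2A, 183 and 182 in S7A and 188 and 185 in Y1F, against 205 and 192 CPM in WT. All 6 mutant libraries lay below both WT libraries, and each was closer to WT replicate 2 than that library was to WT replicate 1. Of the 7 genes, 6 in S2A, 7 in S7A and 4 in Y1F had libraries that did not overlap those of WT, against 75.5%, 74% and 67.6% of all tested genes. The change was −0.09 ± 0.044 in S2A (adjusted p = 0.113), with a 95% interval of −0.18 to 0.01. In S7A it was −0.12 ± 0.044 (edgeR adjusted p = 0.0426), so that set2 fell by 7.85%. Over 15 other settings the adjusted p was between 0.0144 and 0.327. The call was kept in 5 of them and was lost without any of 7 single libraries, all but WT replicate 2. In Y1F the change was −0.09 ± 0.044 (adjusted p = 0.132, interval −0.19 to 0.01). Without WT replicate 2, set2 was called lower in S2A (−0.13, adjusted p = 0.0312, range over settings 0.0312 to 0.572) and in Y1F (−0.14, adjusted p = 0.0441, range 0.0441 to 0.503). Without WT replicate 1 the S7A value was −0.06 (adjusted p = 0.327).

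clr6 and prw1 encode subunits that complex II shares with the other Clr6 complexes. Clr6 is the class I histone deacetylase at their catalytic centre, and Prw1 is a WD40-repeat protein that belongs to the histone-binding family of such subunits. Both stood higher in S7A than in the other strains. clr6 had 93.7 and 88.2 CPM in S2A, 128 and 134 in S7A and 103 and 113 in Y1F, against 111 and 118 CPM in WT. Its S2A libraries were the lowest of the 8 and its S7A libraries the highest. Against WT clr6 fell by 0.33 ± 0.057 on the log2 scale in S2A (adjusted p = 0.00034), and this call held in 15 of 15 other settings that did not ask for a minimum fold change. It rose by 0.2 ± 0.055 in S7A (adjusted p = 0.0111), and in Y1F the value was −0.08 ± 0.056 (adjusted p = 0.304, interval −0.2 to 0.04). The S7A call was lost without S7A replicate 2 (0.16, adjusted p = 0.0933) and without WT replicate 1 (0.16, adjusted p = 0.0548), in a range of 0.00744 to 0.0933.

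prw1 had 74 and 79.5 CPM in S2A, 96.7 and 95.1 in S7A and 85.1 and 88.4 in Y1F, against 82 and 80.5 CPM in WT. S7A was thus highest for this subunit too, with libraries clear of every other strain. It rose by 0.24 ± 0.048 in S7A (adjusted p = 0.00159), a gain of 18% called in 15 of 15 other settings. In S2A the value was −0.09 ± 0.05 (adjusted p = 0.162, interval −0.19 to 0.02) and in Y1F 0.1 ± 0.049 (adjusted p = 0.144, interval −0.01 to 0.2).

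The 4 remaining genes encode subunits particular to complex II among the Clr6 complexes. Pst2 is a Sin3-type corepressor, the scaffold on which the deacetylase sits. Alp13 is a chromodomain protein of the MRG family, related to Eaf3 of budding yeast, and is also found in the NuA4 acetyltransferase. Cph1 and Cph2 are PHD finger proteins, and the reference gives rco1, the name of the budding yeast Rpd3S subunit, as a synonym of cph2.

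pst2 showed the largest change of the 7 in any mutant against WT. It had 202 and 208 CPM in S2A, 162 and 159 in S7A and 159 and 156 in Y1F, against 149 and 146 CPM in WT. Both S2A libraries were above the other 6, which spanned 146 to 162 CPM. The change was 0.47 ± 0.041 in S2A (adjusted p = 1.26e-06), a gain of 38.8%, and 25.7% of all tested genes changed more. It was called in 15 of 15 other settings, between 0.45 and 0.5. In S7A pst2 rose by 0.12 ± 0.042 (adjusted p = 0.0312), and the adjusted p passed 0.05 without S7A replicate 1 (0.157), without S7A replicate 2 (0.0878) and without WT replicate 2 (0.114). With DESeq2 it was 0.117, in a range over settings of 0.026 to 0.157. In Y1F the value was 0.1 ± 0.042 (adjusted p = 0.0924, interval 0.01 to 0.19).

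alp13 had 98.7 and 103 CPM in S2A, 94.5 and 91.1 in S7A and 83.2 and 84.2 in Y1F, against 90.5 and 85.3 CPM in WT. The S2A libraries were highest and those of Y1F lowest. It rose by 0.19 ± 0.048 in S2A (adjusted p = 0.00424), a gain of 14.4% called in 15 of 15 other settings. The values were 0.08 ± 0.048 in S7A (adjusted p = 0.207, interval −0.03 to 0.18) and −0.07 ± 0.048 in Y1F (adjusted p = 0.286, interval −0.17 to 0.04).

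The PHD finger genes cph1 and cph2 changed in opposite directions in S7A. cph1 had 62.7 and 67.3 CPM in S2A, 73 and 76.4 in S7A and 67 and 63.5 in Y1F, against 65.1 and 59.9 CPM in WT. It rose in S7A, by 0.26 ± 0.059 (adjusted p = 0.00338), while its libraries overlapped those of WT in S2A (0.05 ± 0.06, adjusted p = 0.479, interval −0.08 to 0.18) and in Y1F (0.06 ± 0.06, adjusted p = 0.488, interval −0.07 to 0.19). cph2 had 154 and 157 CPM in S2A, 126 and 129 in S7A and 136 and 148 in Y1F, against 146 and 148 CPM in WT. It fell in S7A, by 0.21 ± 0.047 on the log2 scale (adjusted p = 0.00344). The other values were 0.08 ± 0.047 in S2A (adjusted p = 0.159, interval −0.02 to 0.18) and −0.05 ± 0.047 in Y1F (adjusted p = 0.427, interval −0.15 to 0.05). Both S7A calls held in 15 of 15 other settings.

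**Figure D2:**
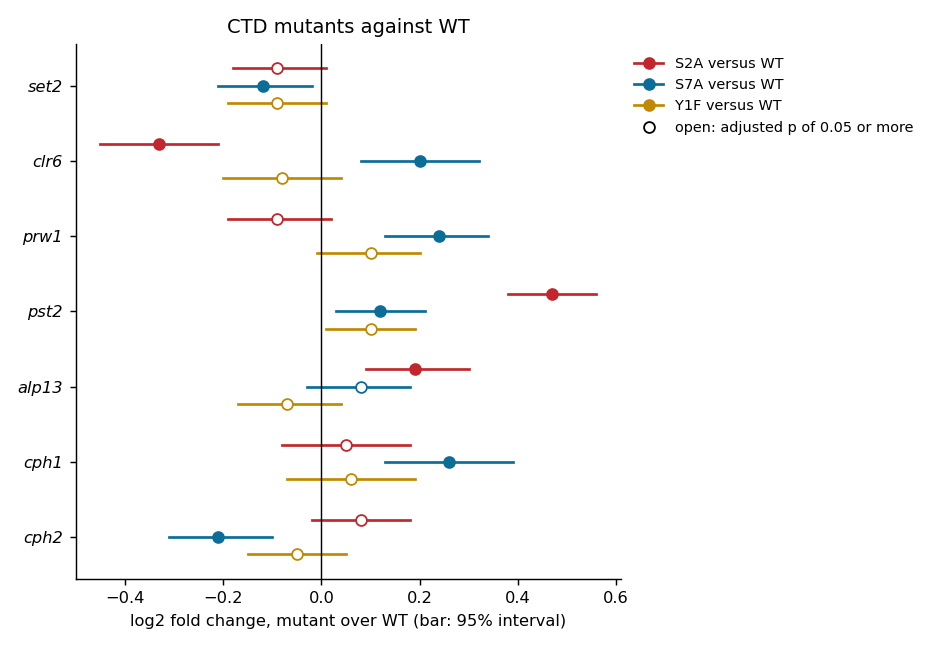
Log2 fold changes of the 7 transcripts (horizontal axis, mutant over WT) with 95% intervals, in S2A, S7A and Y1F; filled points had an adjusted p under 0.05. pst2 in S2A (0.47) and clr6 in S2A (−0.33) lie farthest from 0, and all points of Y1F are open, with intervals within −0.2 to 0.2.

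As given above, edgeR called 0 of the 7 in Y1F; pst2 alone had an unadjusted p under 0.05 (1 gene), and DESeq2 also called 0. The 95% intervals of the 7 changes in Y1F lay within −0.2 to 0.2 on the log2 scale, so larger changes of these genes are outside the intervals. Over all genes Y1F had 2186 calls, and 1203 without Y1F replicate 2.

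The mutants were also set directly against each other, since a gene called in 1 mutant and not in another need not differ between them. S2A and S7A differed in 6 of the 7 genes, against 53.1% of all tested genes, with 3 higher in S2A (28.3% of all) and 3 lower (24.9%), and all 7 had libraries that did not overlap between these strains, against 77.7%. clr6 was lower in S2A than in S7A by 0.53 ± 0.055 on the log2 scale (adjusted p = 5.51e-06), and prw1 by 0.32 ± 0.048 (adjusted p = 0.000104). cph1 was lower in S2A too, at −0.21 ± 0.058 (adjusted p = 0.0095). pst2 was higher in S2A than in S7A by 0.35 ± 0.041 (adjusted p = 1.24e-05), and cph2 by 0.29 ± 0.047 (adjusted p = 0.000217). alp13 stood at the threshold (0.12 ± 0.047, adjusted p = 0.04997) and was called in 4 of 15 other settings, with an adjusted p of 0.0143 to 0.281. It lost its call without any of 6 single libraries, those of the mutants (0.08 to 0.14). For set2 the difference was 0.03 ± 0.044 (adjusted p = 0.57), with an interval of −0.06 to 0.13. The cph1 call was lost without S2A replicate 1 (−0.16, adjusted p = 0.0894) or S7A replicate 2 (−0.17, adjusted p = 0.0955), in a range of 0.00425 to 0.0955.

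S2A and Y1F differed in 5 of the 7 genes, against 48.9% of all tested genes, with 3 higher (25.1% of all) and 2 lower (23.7%) in S2A. The libraries of 5 genes did not overlap, against 75.8%. pst2 was higher in S2A by 0.38 ± 0.041 (adjusted p = 1.06e-05) and alp13 by 0.26 ± 0.047 (adjusted p = 0.000587), each called in 15 of 15 other settings. clr6 was lower in S2A by 0.25 ± 0.056 (adjusted p = 0.00262), a call lost without Y1F replicate 2 (−0.18, adjusted p = 0.0517, the highest of a range from 0.00154). cph2 (0.13 ± 0.047, adjusted p = 0.032) and prw1 (−0.18 ± 0.049, adjusted p = 0.00798) were each called in 12 of 15 other settings. With DESeq2 cph2 and prw1 had adjusted p values of 0.113 and 0.0618, within ranges of 0.0121 to 0.27 and 0.00621 to 0.123. cph2 was not called without S2A replicate 2 (0.12, adjusted p = 0.116) or Y1F replicate 1 (0.08, adjusted p = 0.27). prw1 was not called without S2A replicate 1 (−0.12, adjusted p = 0.123) or Y1F replicate 2 (−0.15, adjusted p = 0.0869). Without Y1F replicate 2 the count of the 7 genes called was 3. For set2 the difference was 0 ± 0.044 (interval −0.09 to 0.1) and for cph1 −0.01 ± 0.059 (interval −0.13 to 0.12).

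Y1F and S7A also differed in 5 of the 7 genes, against 48.7% of all tested genes, with 1 higher (25.7% of all) and 4 lower (23%) in Y1F. The libraries of 6 genes did not overlap, against 77.2%. clr6 was lower in Y1F by 0.27 ± 0.055 (adjusted p = 0.00129), called in 15 of 15 other settings. cph1 was lower in Y1F as well (−0.2 ± 0.058, adjusted p = 0.0128), as were alp13 (−0.15 ± 0.047, adjusted p = 0.0222) and prw1 (−0.14 ± 0.047, adjusted p = 0.0263), while cph2 was higher (0.15 ± 0.047, adjusted p = 0.0163). Each of these 4 calls was lost without at least 2 single libraries of Y1F or S7A, with values then of −0.17 to −0.16 for cph1, −0.16 to −0.12 for alp13, −0.17 to −0.12 for prw1 and 0.09 to 0.17 for cph2. The count of the 7 genes called was 2 without S7A replicate 1, 2 without S7A replicate 2, 3 without Y1F replicate 1, 1 without Y1F replicate 2, and 2 with DESeq2. The differences of set2 (0.03 ± 0.044, interval −0.07 to 0.12) and pst2 (−0.02 ± 0.041, interval −0.11 to 0.07) were not called.

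**Figure D3:**
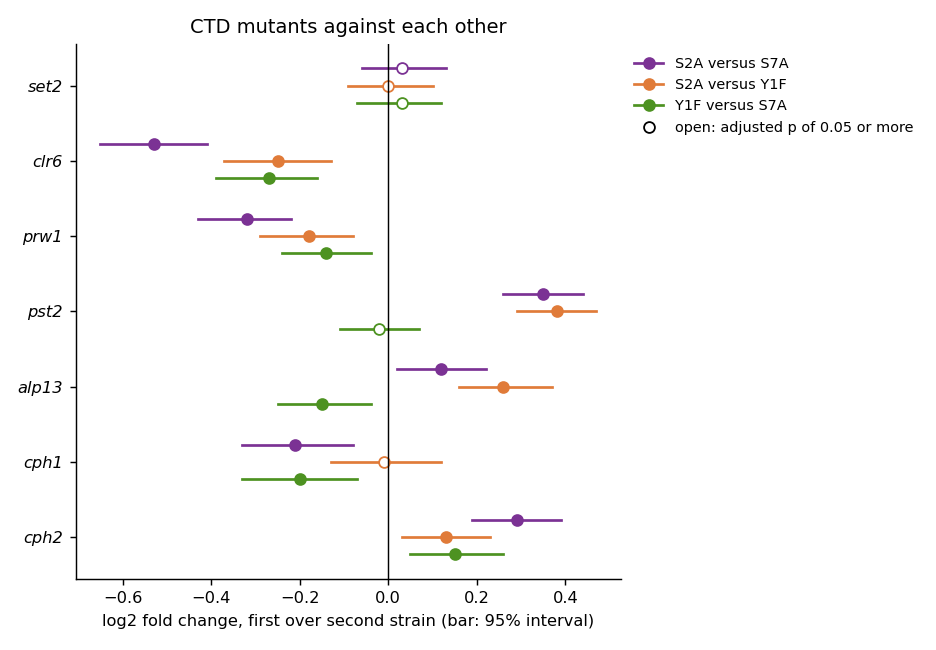
Log2 fold changes of the 7 transcripts between pairs of mutants (horizontal axis, first over second strain named) with 95% intervals; filled points had an adjusted p under 0.05. clr6 in S2A versus S7A (−0.53) lies farthest from 0, and the 3 set2 points are open and near 0.

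The order of the strains differed from gene to gene. From highest to lowest mean, clr6 and prw1 began with S7A and ended with S2A, pst2 and alp13 began with S2A, and set2 was highest in WT. Between neighbours in these orders the test called S7A over WT and Y1F over S2A for clr6, S2A over S7A for pst2 and alp13, and S7A over Y1F for cph1 and prw1. For cph2 it called Y1F over S7A. Of these calls only that of pst2 held in 15 of 15 other settings, and that of alp13 held in 4. The remaining neighbours, among them all of set2, were not called. As a description over the 8 libraries, which share 4 strain means, log2 CPM of clr6 and prw1 had a Pearson r of 0.82, pst2 and alp13 of 0.83, and cph1 and prw1 of 0.77. The lowest were −0.88 for cph2 and prw1, −0.8 for clr6 and cph2, −0.78 for cph1 and cph2, and −0.76 for clr6 and pst2.

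To compare levels between genes, CPM was divided by coding length. In S2A the levels per kb of coding length were 99.2 ± 2.74 for alp13, 85.4 ± 1.26 for cph2, 77.9 ± 1.27 for set2, 74.7 ± 3.21 for clr6, 63.4 ± 1.27 for pst2, 59.2 ± 3 for prw1 and 53.5 ± 2.67 for cph1 (SD, n = 2). In WT they were 94 ± 3.82 for clr6, 86.7 ± 3.63 for alp13, 82.7 ± 3.74 for set2, 80.7 ± 0.973 for cph2, 62.7 ± 0.854 for prw1, 51.4 ± 3.03 for cph1 and 45.7 ± 0.769 for pst2 (SD, n = 2). In WT the libraries of alp13 and set2 overlapped, and so did those of set2 and cph2. Per coding kb pst2 was thus the lowest in WT and ranked 5 of 7 in S2A, and clr6 ranked 1 in WT and 4 in S2A. The order depends on the length used. Per kb of annotated gene length, untranslated ends and introns included, cph2 (69) and set2 (68.7) led in WT and clr6 followed alp13 at 53.7. On that scale cph1 (38.7) was below pst2 (41) in WT, and pst2 ranked 6 in WT and 4 in S2A.

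Within a library, the ratio of 2 genes does not depend on scaling. The ratio of pst2 to clr6 per kb of coding length was 0.813 and 0.889 in S2A, 0.476 and 0.447 in S7A and 0.583 and 0.521 in Y1F, against 0.506 and 0.467 in WT. The S2A libraries stood apart from the other 6 in this ratio, of the 2 members that changed most in S2A. They also stood apart for alp13 over clr6 (1.26 and 1.4, elsewhere at most 0.977) and cph2 over clr6 (1.1 and 1.19, at most 0.88). The same held for set2 over clr6 (1.02 and 1.06, at most 0.934) and cph1 over clr6 (0.671 and 0.765, at most 0.651). For prw1 over clr6 the S2A libraries (0.742 and 0.847) overlapped those of Y1F (0.776 and 0.734). All of these ratios have clr6 as denominator, and clr6 was lowest in S2A, so they are not separate results. Against WT, set2, cph1 and cph2 themselves were not called in S2A. pst1 and pst3 encode the other Sin3-type corepressors and their ratios to pst2 were chosen after the values were seen, their own included. The ratio of pst2 to pst1 was 1.53 and 1.52 in S2A, 1.2 and 1.1 in S7A and 1.24 and 1.16 in Y1F, against 1.03 and 1.08 in WT. For pst2 to pst3 it was 1.39 and 1.36 in S2A, 1.12 and 1.09 in S7A and 1.1 and 1.11 in Y1F, against 1.07 and 1.01 in WT. S2A was highest in both ratios. pst1 was at −0.06 ± 0.052 (adjusted p = 0.343) and pst3 at 0.07 ± 0.044 (adjusted p = 0.186) in S2A against WT. The ratio of cph1 to cph2 was 0.61 and 0.642 in S2A, 0.867 and 0.89 in S7A and 0.74 and 0.646 in Y1F, against 0.669 and 0.605 in WT. With 2 libraries a side an exact two-sided permutation test cannot go below 0.333, so these ratios are given without a test.

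**Figure D4:**
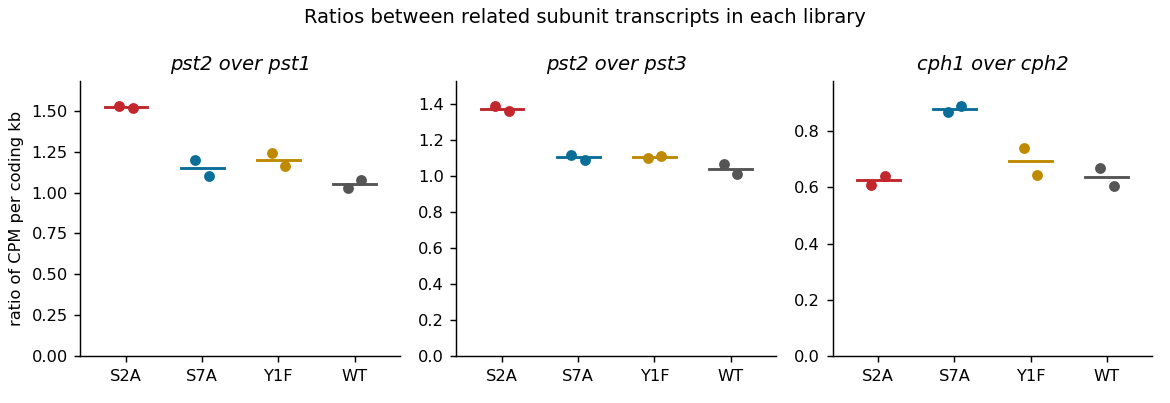
Ratios of CPM per coding kb between related subunit transcripts in each library (vertical axis from 0), with 2 points per strain and a line at their mean. pst2 over pst1 is 1.52 and 1.53 in S2A and at most 1.24 in the other libraries, and cph1 over cph2 is highest in S7A.

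Since the pathway is known for holding down antisense RNA, the genes on the other strand of the 7 were also read. By the reference annotation 9 genes overlapped a member, all on the opposite strand, and 5 of them were in the count table. The other 4 were noncoding RNAs, absent from the count table and not analysed here. SPNCRNA.4901 lay opposite 83.2% of clr6 and SPNCRNA.2967 opposite 96.9% of pst2. SPNCRNA.2223 and SPNCRNA.2224 lay opposite 11.8% and 16.8% of cph2. The library kit keeps strand, but no source read here tells how strand was handled in counting. Values of genes that overlap on opposite strands are uncertain for that reason, those of pst2 and clr6 given above included.

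At cph1 the annotated antisense RNA SPNCRNA.687 covered 32.7% of the gene, including 463 bases of its coding part. It had 11.5 and 9.88 CPM in S2A, 3.95 and 3.29 in S7A and 2.2 and 2.97 in Y1F, against 5.04 and 6.8 CPM in WT. S2A was above WT and the other mutants were below it. It rose by 0.86 ± 0.18 in S2A (adjusted p = 0.00158). The values were −0.72 ± 0.21 (adjusted p = 0.0139) for S7A and −1.15 ± 0.22 (adjusted p = 0.002) for Y1F. cph1 itself was called higher in S7A and was not called in S2A or Y1F. The S7A call of SPNCRNA.687 held in 13 of 15 other settings, not without S7A replicate 2 (−0.58) or WT replicate 2 (−0.49), and the other 2 calls held in 15 of 15.

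At prw1 the opposite strand is annotated to cta5, which encodes a predicted P-type ATPase. The whole of prw1, 1605 bases, lay within the annotated extent of cta5, and 16 of these bases were coding in cta5. cta5 had 106 and 113 CPM in S2A, 55.8 and 54.5 in S7A and 88.5 and 86.3 in Y1F, against 60.6 and 63.7 CPM in WT. It rose by 0.81 ± 0.05 in S2A (adjusted p = 6.28e-08) and by 0.49 ± 0.051 in Y1F (adjusted p = 1.71e-05), and it fell by 0.17 ± 0.053 on the log2 scale in S7A (adjusted p = 0.0167). The S7A call was lost without S7A replicate 2 (−0.16) and without WT replicate 2 (−0.14). prw1 was higher in S7A, where cta5 was lower, and was not called in S2A and Y1F, where cta5 was higher.

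At alp13 the overlapping gene was SPAC23H4.13c, a protein-coding gene that faced 35.3% of alp13, 82 bases of it coding in alp13. It had 21.9 and 21.9 CPM in S2A, 30.5 and 28 in S7A and 30 and 30.9 in Y1F, against 30.3 and 26.3 CPM in WT. It was lower than WT in S2A (−0.37 ± 0.086, adjusted p = 0.00312), where alp13 was higher, and was not called in S7A (0.04) or Y1F (0.11). ino80, a chromatin remodeller gene, overlapped 5.2% of set2 in noncoding ends and stood at 0.01 in S2A, −0.01 in S7A and −0.09 in Y1F, with no call. cys11, a cysteine synthase gene, overlapped 6.6% of clr6. Its value was −0.05 in S2A (adjusted p = 0.415), and it was lower in S7A (−0.12, adjusted p = 0.0403, called in 6 of 15 other settings and lost without any of 5 single libraries, at −0.14 to −0.07) and in Y1F (−0.23, adjusted p = 0.00214).

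**Figure D5:**
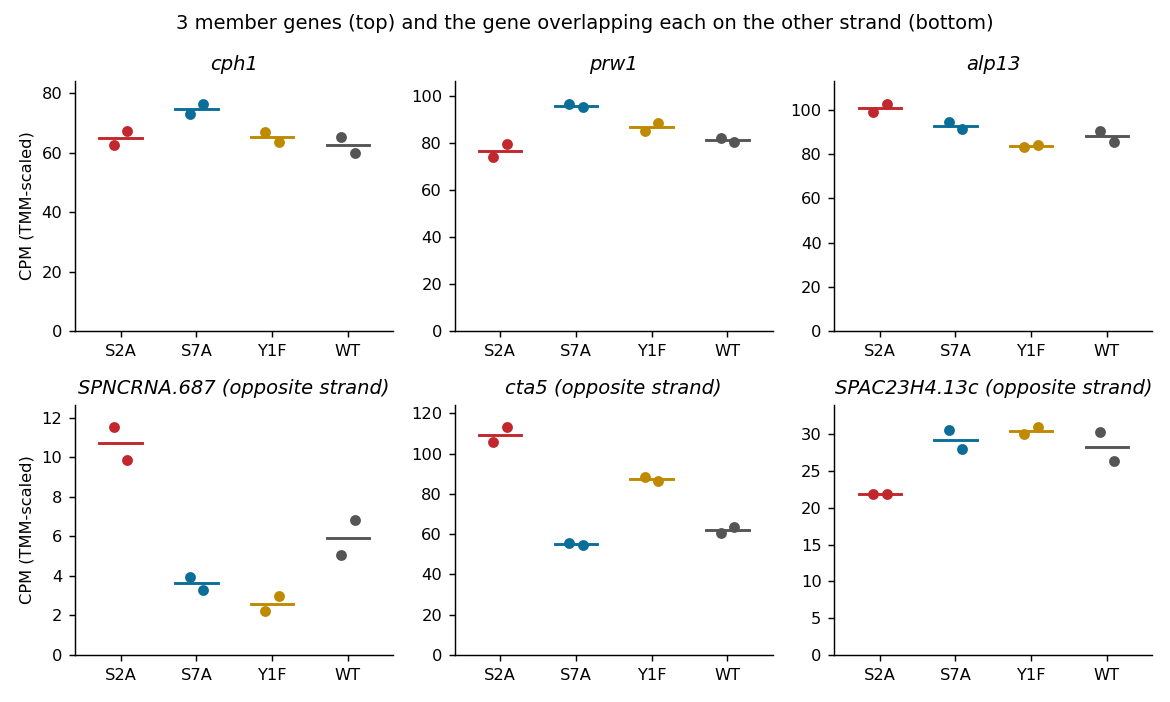
Levels of cph1, prw1 and alp13 (top row) and of the gene that overlaps each on the opposite strand (bottom row) in each library (vertical axes, TMM-scaled CPM, starting at 0), with a line at each strain's mean. SPNCRNA.687 is at 9.88 to 11.5 CPM in S2A and at most 6.8 CPM elsewhere, and cta5 is highest in S2A.

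Of 13 tested nearest genes that did not overlap a member, 2 were called in S2A, 4 in S7A and 6 in Y1F, against 55.4%, 47.4% and 35% of all tested genes. upf1, the helicase of nonsense-mediated decay and the neighbour downstream of cph1, was lower in S2A (−0.52 ± 0.043, adjusted p = 7.86e-07). It was also lower for S7A (−0.18 ± 0.043, adjusted p = 0.00478) and Y1F (−0.17 ± 0.043, adjusted p = 0.00926), for Y1F not without Y1F replicate 2 (−0.16). The noncoding RNA SPNCRNA.660, downstream of cph2, was higher in S2A (0.66 ± 0.19, adjusted p = 0.0106) and Y1F (0.58 ± 0.19, adjusted p = 0.0326). Its calls were lost without 2 single libraries for S2A (S2A replicate 1 or WT replicate 1, 0.56 and 0.57) and without any Y1F or WT library for Y1F (0.48 to 0.68). fun14, upstream of prw1, was higher in S7A (1.04 ± 0.17, adjusted p = 0.000324) and lower in Y1F (−0.58 ± 0.2, adjusted p = 0.0391), the Y1F call being lost without any Y1F or WT library (−0.77 to −0.46). snf5, a gene of the SWI/SNF remodeller upstream of cph2, was higher in S7A (0.16) and Y1F (0.15). elp3 of Elongator, 3938 bases downstream of prw1, was lower in S7A (−0.13). In Y1F spo9, upstream of clr6, was higher (0.25), and SPNCRNA.1391, 3024 bases downstream of clr6, was lower (−1.07). SPNCRNA.1391 had low counts, at 1.18 and 0.887 CPM in Y1F against 2.03 and 2.2 CPM in WT. Each of these 5 calls depended on single libraries. The snf5 call in S7A was lost without S7A replicate 2 (0.11) or WT replicate 1 (0.14), and that in Y1F without any of 7 libraries (0.11 to 0.15). elp3 lost its call without any of 6 libraries (−0.14 to −0.07), spo9 without Y1F replicate 2 (0.25) or WT replicate 1 (0.17), and SPNCRNA.1391 without any Y1F or WT library (−1.24 to −0.84).

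Genes that act beside the pathway were taken as lists. Their counts are to be read against the shares called among all genes, 28.8% higher and 26.6% lower in S2A, 23.1% and 24.3% in S7A, and 17.6% and 17.4% in Y1F, and their medians against 0.009, −0.008 and 0.013. Of 11 subunits of the other Clr6 complexes, 2 were higher, 2 lower and 7 not called in S2A. The counts were 2, 1 and 8 in S7A and 1, 1 and 9 in Y1F. These are smaller shares than the 55.4%, 47.4% and 35% called among all genes. nts1 was higher in S2A (0.35 ± 0.062, adjusted p = 0.00047), and mug165 was lower there (−0.61 ± 0.11, adjusted p = 0.000507). mug165 was lower too in S7A (−0.38 ± 0.11, adjusted p = 0.011) and Y1F (−0.31 ± 0.11, adjusted p = 0.0367). The list's medians were 0.07, 0.11 and 0.01 in S2A, S7A and Y1F. dep1, rxt3 and cti6 have budding yeast relatives in the Rpd3L complex. dep1 was lower in S2A (−0.28; −0.23 and not called without WT replicate 1), and rxt3 (0.24) and cti6 (0.21) were higher in S7A. cti6 was higher in Y1F too (0.18, called in 7 of 15 other settings). Its S7A call was lost without S7A replicate 1 (0.2) and its Y1F call without any S7A, Y1F or WT library (0.16 to 0.21). mug165 was not called in S7A without S7A replicate 2 (−0.29) or WT replicate 2 (−0.31), nor in Y1F without either Y1F library or WT replicate 2 (−0.32 to −0.25).

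Of 5 other histone deacetylase genes, 1 was higher and 2 lower in S2A, 1 higher and 0 lower in S7A, and 0 called in Y1F, against 55.4%, 47.4% and 35% of all genes in either direction. The medians were −0.09, 0.09 and 0.02. hst4, a sirtuin gene, was higher in S2A (0.23 ± 0.044, adjusted p = 0.000654) and in S7A (0.43 ± 0.043, adjusted p = 1.01e-05). The sirtuin genes sir2 (−0.22) and hst2 (−0.19) were lower in S2A, hst2 not without S2A replicate 2 (−0.15) or WT replicate 1 (−0.17). Neither was called with DESeq2 (adjusted p = 0.0669 for sir2 and 0.0835 for hst2). Of 6 other histone methyltransferase and demethylase genes, 1 was higher and 0 lower in S2A, 0 and 3 in S7A, and 3 and 0 in Y1F. Among all genes 24.3% were lower in S7A and 17.6% higher in Y1F, and the list's medians were 0.07, −0.1 and 0.16 in S2A, S7A and Y1F. set1, the lysine 4 methyltransferase of histone H3, was lower in S7A (−0.21 ± 0.044, adjusted p = 0.00235) and higher in Y1F (0.17 ± 0.044, adjusted p = 0.0116). clr4, the lysine 9 methyltransferase of heterochromatin, did the same (−0.18 in S7A and 0.2 in Y1F). The third call was lsd2 in S7A (−0.15) and lsd1 in Y1F (0.15), and jmj2 was higher in S2A (0.48 ± 0.11, adjusted p = 0.00257). Single libraries ended the calls of set1 in Y1F (without Y1F replicate 1, 0.13), clr4 in S7A (without S7A replicate 1 or WT replicate 2, −0.16 each) and in Y1F (without Y1F replicate 2 or WT replicate 1, 0.17 each). They also ended those of lsd2 (without either S7A library or WT replicate 2, −0.18 to −0.09) and lsd1 (without either Y1F library or WT replicate 2, 0.12 to 0.16).

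Of 9 genes of histone acetyltransferases and their partners, 2 were higher and 1 lower in S2A, 1 and 2 in S7A, and 2 and 1 in Y1F. This is 3 of 9 in each mutant, against 55.4%, 47.4% and 35% of all genes, with medians of 0, −0.05 and 0.07. rtt109, which acetylates newly made histone H3, was lower in each mutant than in WT. S2A stood at −0.69 ± 0.098 (adjusted p = 7.65e-05) and S7A at −0.61 ± 0.096 (adjusted p = 0.000264). For Y1F it was −0.41 ± 0.095 (adjusted p = 0.00544). mst1, the catalytic gene of NuA4, which shares Alp13, was lower in S7A (−0.32 ± 0.078, adjusted p = 0.00521; −0.26 and not called without S7A replicate 2). epl1 (0.26), also of NuA4, was higher in S2A, vid21 was higher in S2A (0.14), S7A (0.13) and Y1F (0.13, called in 4 of 15 other settings), and nto1 was higher in Y1F (0.14, called in 0 of 15). vid21 was not called in S2A without S2A replicate 1 (0.14) or WT replicate 2 (0.12), nor in S7A without either S7A library or WT replicate 2 (0.11 to 0.13), nor in Y1F without any single library (0.1 to 0.16), and nto1 without any single library (0.12 to 0.15).

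Of 11 histone chaperone and remodeller genes, 1 was higher and 5 lower in S2A, 2 and 4 in S7A, and 1 and 1 in Y1F. The 6 calls of 11 in S2A and in S7A were close to the 55.4% and 47.4% of all genes, and the 2 in Y1F were below 35%. The medians were −0.06, −0.05 and −0.04. hrp1 and hrp3 encode Chd1-type remodellers, which act on nucleosomes of transcribed genes. hrp1 was at 197 and 211 CPM in S2A against 290 and 285 CPM in WT (−0.5 ± 0.047, adjusted p = 2.49e-06), and hrp3 was lower in S2A (−0.3 ± 0.044, adjusted p = 9.36e-05) and Y1F (−0.17 ± 0.043, adjusted p = 0.00994). hip4 was lower in S2A (−0.26), but not called without S2A replicate 1 (−0.2) or WT replicate 1 (−0.16). In S7A hrp1 (−0.12, called in 4 of 15 other settings) and hrp3 (−0.12, called in 9 of 15) were at the margin of the test. hrp1 lost its call there without any of 6 single libraries (−0.16 to −0.09) and hrp3 without any S7A or WT library (−0.16 to −0.09). asf1, a chaperone of histones H3 and H4, was lower in S2A (−0.25 ± 0.058, adjusted p = 0.00307) and S7A (−0.35 ± 0.058, adjusted p = 0.000377), each in 15 of 15 other settings. Both genes of FACT were higher in S7A, spt16 at 0.28 ± 0.046 (adjusted p = 0.000381) and pob3 at 0.15 ± 0.043 (adjusted p = 0.0103), and pob3 was higher in Y1F (0.14). Without S7A replicate 1 pob3 was not called in S7A (0.14), without any Y1F or WT library it was not called in Y1F (0.12 to 0.16), and hrp3 was not called in Y1F without Y1F replicate 1 (−0.16).

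Of 10 genes of the serine 2 kinases and the Paf1 elongation complex, 2 were higher and 4 lower in S2A, 3 and 1 in S7A, and 1 and 3 in Y1F. The shares called among all genes, 55.4%, 47.4% and 35%, were near these counts of 6, 4 and 4. The medians were −0.09, 0.07 and 0.05. tpr1, the Paf1 complex subunit related to Ctr9, had 153 and 159 CPM in S2A and 178 and 180 CPM in Y1F, against 285 and 263 CPM in WT. It was lower in S2A (−0.81 ± 0.051, adjusted p = 7.54e-08) and Y1F (−0.61 ± 0.051, adjusted p = 2.46e-06). leo1 of the same complex was lower in S2A (−0.46 ± 0.055) and Y1F (−0.44 ± 0.055). lsk1, which encodes a kinase of serine 2, was higher in S2A (0.56 ± 0.043, adjusted p = 3.87e-07). cdc73 was higher in S7A (0.31) and Y1F (0.27), and prf1 was higher in S2A (0.29) and S7A (0.19). lsg1 was lower in S2A (−0.22) and Y1F (−0.37) and higher in S7A (0.24). The S2A call of lsg1 was lost without either S2A library or WT replicate 2 (−0.22 to −0.15). In S7A the call of prf1 was lost without S7A replicate 1 (0.16) or WT replicate 2 (0.13), and that of lsg1 without either S7A library or WT replicate 1 (0.18 to 0.25).

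The genes whose levels ran most like each member were found by Pearson r of log2 CPM over the 8 libraries. They were sought among 4769 other protein-coding genes of at least 5 CPM on average. For pst2 these were mrz1 (0.99) and yea4 (0.989), for clr6 SPAC7D4.12c (0.984) and stp1 (0.975), and for prw1 tfb2 (0.991) and rqc1 (0.974). For cph2 they were SPACUNK4.20 (0.999) and ams2 (0.979), for cph1 rng10 (0.986) and yak3 (0.985), and for alp13 SPAC1002.07c (0.986) and SPAC9E9.15 (0.979). For set2 they were rpl1902 (0.974) and rpl1901 (0.971), a pair of ribosomal protein genes with similar sequences whose counts may be split between them. set2 spanned 0.17 on the log2 scale over the 8 libraries, so its likeness rests on small differences, while clr6 spanned 0.6 and pst2 0.51. SPACUNK4.20 was near the floor of the search, at 3.41 and 3.73 CPM in S7A and 7.73 and 8.26 CPM in S2A.

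mrz1, the closest to pst2, had 55.3 and 55.2 CPM in S2A, 37 and 34.4 in S7A and 37.2 and 36.5 in Y1F, against 31.4 and 30.4 CPM in WT. These genes were picked for their likeness over the same 8 libraries, so their values are a description and no test is given.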

How the data were processed

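Total RNA was depleted of ribosomal RNA and made into strand-preserving libraries, sequenced as pairs of 100 nt reads, per the labels' protocols. The deposited table holds the authors' raw counts per gene ID, 1 column per library. The submitters' processing notes list build ASM294v2 and the tools HISAT2, featureCounts, deepTools, StringTie and DESeq2, with no roles; their versions and the strand setting were not found in any source read. Of 7000 IDs, 6797 matched the reference annotation (ASM294v3, another build), which gave names, lengths and strands. Overlaps and neighbours were worked out from its coordinates, and no coordinates or sequences of it are printed.

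edgeR 4.0.16 in R 4.3.3 was run on the counts: filterByExpr (minimum count 10, minimum total 15), TMM scaling, and a quasi-likelihood fit of 8 libraries with 1 mean per strain (4 residual degrees of freedom, biological coefficient of variation 4.44%). Each SE is the size of a change over the root of its F statistic, and 95% intervals use the test's degrees of freedom. The script was tested on simulated data. Alternatives were DESeq2 1.42.0, RLE scaling, TMM on protein-coding genes, no filter, at least 5 CPM in 2 libraries, only the compared strains, a replicate block, each library left out, and a test against a 1.2-fold change (glmTreat); counts of settings in the text leave out the last. Figures were drawn with matplotlib 3.10.9.

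The members and lists were chosen with earlier results of these data known. Named genes were the members, rpb1, rpb3 (the tagged gene), genes overlapping members, called nearest neighbours, up to 3 called genes per list and mutant with the largest change, and the 2 genes most alike in pattern to each member; list genes named for 1 mutant are given in each mutant that called them, and the ratios of pst2 to pst1 and pst3 were chosen after their values were seen. rpb3 changed by 0.86 ± 0.044 in S2A, −0.12 ± 0.045 in S7A and 1.13 ± 0.044 in Y1F against WT; the S7A call (adjusted p = 0.0474) was kept in 2 of 15 other settings and lost without any of the 8 libraries.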

Additional observations from a re-analysis of the deposited data

How the results depend on the processing

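Leaving out 1 library at a time, the number of the 7 genes called was 3 to 4 in S2A, 3 to 5 in S7A and 0 to 1 in Y1F against WT, 4 to 6 between S2A and S7A, 3 to 5 between S2A and Y1F, and 1 to 5 between Y1F and S7A. Genes called in all were then 2875 to 3353 in S2A, 2127 to 2962 in S7A and 1203 to 2184 in Y1F. DESeq2 called 3 of the 7 between S2A and Y1F and 2 between Y1F and S7A. Calls against WT of other genes given above also ended with DESeq2. In S2A these were sir2, hst2, hip4, vid21, lsg1 and SPNCRNA.660. In S7A they were hrp1, hrp3, lsd2, clr4, cta5, cys11, elp3, snf5, mug165, cti6, vid21, lsg1 and rpb3. In Y1F they were fun14, snf5, spo9, mug165, cti6, lsd1, clr4, set1, pob3, vid21, nto1, SPNCRNA.660 and SPNCRNA.1391. With glmTreat against a 1.2-fold change, which asks for a minimum size, 1 of the 7 was called in S2A, 0 in S7A, 2 between S2A and S7A, 1 between S2A and Y1F and 0 between Y1F and S7A, with 1568, 1003 and 556 genes called in all in S2A, S7A and Y1F.

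Sign changes were limited to uncalled values near 0. cph1 was −0.01 (S2A against WT) and 0 (Y1F against WT) without WT replicate 2. Between S2A and Y1F it was 0.02 with TMM on protein-coding genes, 0.01 with the filter of 5 CPM, 0.06 without S2A replicate 1, 0.03 without Y1F replicate 1 and 0 without WT replicate 1. set2 was 0 and −0.01 between S2A and Y1F without S2A replicate 1 and without Y1F replicate 2, and cph2 was 0 in Y1F without Y1F replicate 1. ino80 was −0.03 in S2A without S2A replicate 2 or WT replicate 2 and 0.03 in S7A without WT replicate 1. cys11 was 0 in S2A without WT replicate 1, and SPAC23H4.13c was −0.01 and −0.05 in S7A without S7A replicate 1 and without WT replicate 2. Over all left-out libraries these results ranged, against WT, from −0.01 to 0.12 (cph1 in S2A), 0 to 0.11 (cph1 in Y1F), −0.11 to 0 (cph2 in Y1F), −0.03 to 0.05 (ino80 in S2A), −0.09 to 0 (cys11 in S2A) and −0.05 to 0.16 (SPAC23H4.13c in S7A). The cause was not tested for any of these.

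The titles number the replicates 1 and 2 in each strain, and nothing says that a number marks a shared day or batch. Deviations of same-numbered libraries had correlations of −0.16 to 0.18 between strains. With a replicate block 3, 6 and 0 of the 7 were called in S2A, S7A and Y1F against WT, and 5, 5 and 5 between S2A and S7A, S2A and Y1F, and Y1F and S7A; the block ended the calls of alp13 between S2A and S7A (adjusted p = 0.0609), elp3, cys11, rpb3 and hrp1 in S7A (0.0521, 0.0503, 0.0526 and 0.0554), and fun14, mug165 and nto1 in Y1F (0.0543, 0.0507 and 0.0504). With 2 libraries a strain the SE of the 7 genes was 0.041 to 0.06, and the number of libraries limits this precision.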
